A study of Mus musculus with 3 samples.

Results

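The NF-κB gene set comprised 5 subunit genes, 3 genes listed as inhibitors and 2 kinase genes, taken by symbol from the 23282 entries measured in each library. The 10 members, Nfkb1, Nfkb2, Rel, Rela, Relb, Nfkbia, Nfkbiz, Tnfaip3, Chuk and Ikbkb, were chosen by name, with earlier results of these data known. Each had 1 entry with reads in every library. The libraries came from bone marrow cells of wild type male C57BL/6 mice, an inbred laboratory strain, which were 6 weeks old and were given sterile water, the vehicle, by mouth for 28 days. Marrow was taken on day 29 and red cells were lysed. The series sets this vehicle against Asari Radix et Rhizoma, a herbal drug made from wild ginger root. The 3 vehicle libraries form 1 group, and since samples given the herb were not analysed here, no treatment effect is described. Nothing in the labels ties each library to a mouse of its own, so p-values measure only the spread between these samples, which may be technical.

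NF-κB is a family of dimeric transcription factors built from the products of Rela, Rel, Relb, Nfkb1 and Nfkb2. In resting cells IκB proteins hold most dimers in the cytoplasm. The kinase encoded by Ikbkb marks IκB for destruction after signals from Toll-like, interleukin-1 and TNF receptors, the classical route, while Chuk encodes the kinase of the alternative route, in which the Nfkb2 precursor is cut and pairs with RelB. Freed dimers switch on immune and survival genes, and among these the genes of their own inhibitors, Nfkbia and Tnfaip3. In marrow the family acts in neutrophils and monocytes, which use it to answer microbial products, and in B cells, whose maturation and survival need it.

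The stretches before the gene starts of 3 members, an inhibitor, a subunit and a kinase gene, are shown because the family can act on its own genes through κB sites, of which the first and second stretches hold matches and the Chuk stretch none. Each is the 250 bases before the RefSeq start on GRCm38.p6, written 5′ to 3′ along the gene's minus strand. Capitals mark matches, on either strand, to a κB-type motif that reads GGG, any 2 bases, TT, any base and CC.
Nfkbia, chr12:55492648-55492897: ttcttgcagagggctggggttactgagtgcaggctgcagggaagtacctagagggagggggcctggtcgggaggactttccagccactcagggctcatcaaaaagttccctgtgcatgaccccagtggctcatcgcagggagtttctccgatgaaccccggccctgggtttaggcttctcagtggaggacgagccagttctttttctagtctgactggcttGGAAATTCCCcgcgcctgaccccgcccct
Rel, chr11:23770970-23771219: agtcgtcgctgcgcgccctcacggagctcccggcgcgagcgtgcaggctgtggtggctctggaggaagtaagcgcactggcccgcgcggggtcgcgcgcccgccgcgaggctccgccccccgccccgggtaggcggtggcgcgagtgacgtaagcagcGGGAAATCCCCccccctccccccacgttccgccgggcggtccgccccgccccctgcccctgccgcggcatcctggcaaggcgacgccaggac
Chuk, chr19:44107478-44107727: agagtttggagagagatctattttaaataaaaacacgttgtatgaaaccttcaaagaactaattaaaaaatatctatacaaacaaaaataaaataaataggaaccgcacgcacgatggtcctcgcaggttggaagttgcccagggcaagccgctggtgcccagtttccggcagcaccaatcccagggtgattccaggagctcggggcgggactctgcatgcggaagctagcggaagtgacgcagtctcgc
The Nfkbia stretch held 1 match, which began 29 bases before the start, and the Rel stretch held 2 overlapping matches. The RefSeq table matched 6 of the 10 members, with 9 starts between them, and not Nfkb1, Relb, Nfkbiz and Ikbkb. Matches stood in 5 of these 9 stretches and in 4 of the 6 genes. Tnfaip3 had GGAAATCCCC at chr10:19015413-19015422, which is the motif on the opposite strand, 12 bases before the first of its RefSeq starts. The most upstream RefSeq start of Nfkb2 had the palindrome GGGAATTCCC at chr19:46304698-46304707, which is matched on both strands, and 2 further overlapping matches. The Rela stretch had none. GENCODE places the starts of Tnfaip3 and Nfkb2 further upstream, so the matches named for these genes lie inside the GENCODE positions given below. Of 32851 RefSeq stretches of the same length, 1350 (4.11%) held at least 1 match. The motif was chosen after these stretches had been read, and a match describes letters only, not binding.

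Gene-assigned reads numbered 9168435 in replicate 1, 8104828 in replicate 2 and 9137125 in replicate 3, and the members had between 58 and 6646 reads in a library. Levels are given as reads per 1000000 gene-assigned reads (CPM). The kit name in the labels is that of a poly(A)-primed method that yields about 1 fragment per transcript, so CPM was not divided by length. The catalogue number beside the name could not be matched to a kit in the sources used here, so levels per kilobase are given too where genes are compared. Fewer cells of a type and less RNA per cell cannot be told apart in these bulk samples. Of the marker lists, erythroid genes summed to 7.51%, 11.2% and 11.2% of reads and neutrophil genes to 8.97%, 6.96% and 9.21%, and the other cell type lists held at most 0.196% each. No marker gene measured was at 0 in all libraries, and Ly6g was not analysed here. The replicate 1 library stood 0.14 log2 units above the other libraries at the median gene on library totals, and 0.01 with trimmed-mean (TMM) scaling. Directions between libraries are on library totals unless TMM scaling is named. A named highest or lowest library of a member that differs between these scalings is said to do so.

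The inhibitor gene Nfkbia was by far the most abundant member, and the subunit genes lay well below it. Nfkbia (chromosome 12, 55489410 to 55492647) encodes IκBα, which holds NF-κB dimers in the cytoplasm and is remade when they act. It had 725, 687 and 627 CPM in replicates 1, 2 and 3, a mean of 679.8 ± 49.1 CPM (SD, n = 3), higher than 99.5% of the genes with reads. Its level was close in all libraries and differed 1.16-fold at most between them. Nfkbia alone made up 65.3%, 66.4% and 66.0% of the summed reads of the 10 genes. Its reads were 4.20, 4.55 and 4.34 times those of the 5 subunit genes together, a ratio that needs no scaling and moved 1.08-fold over the libraries.

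**Figure D1:**
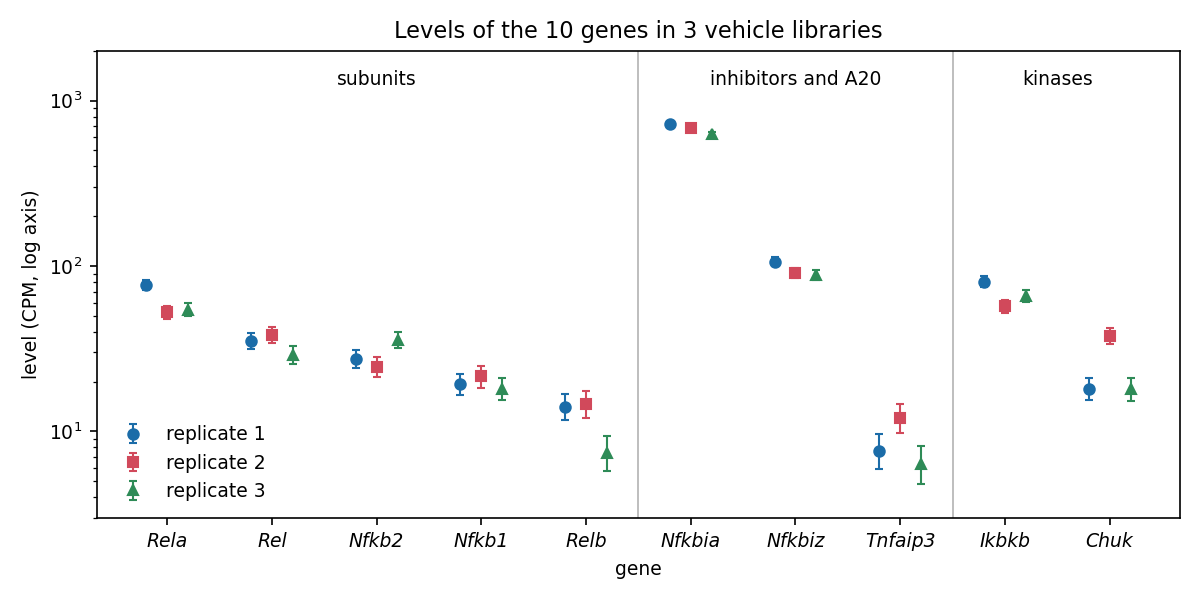
Level of each gene in CPM (log axis) in vehicle replicates 1, 2 and 3, with exact 95% Clopper-Pearson intervals as bars, grouped by role. Nfkbia stands at 627 to 725 CPM in all libraries, above every other member, and Tnfaip3 at 6.35 to 12.0 CPM and Relb at 7.44 to 14.6 CPM are the lowest.

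The other genes listed with the inhibitors covered a wide range. Nfkbiz (chromosome 16, 55811375 to 55838899) encodes IκBζ, a nuclear IκB protein that helps p50-bound genes such as Lcn2 to be expressed. It had 106, 90.4 and 88.8 CPM, a mean of 95.1 ± 9.64 CPM (SD, n = 3), and was the second most abundant member. Replicate 1 was the highest and the others lay close together. Nfkbia reads were 6.82, 7.60 and 7.07 times Nfkbiz reads, a ratio that moved 1.11-fold. Tnfaip3 (chromosome 10, 19000910 to 19015657) encodes A20, a ubiquitin-editing enzyme that shuts off signalling to NF-κB. It had the lowest mean level, with 7.63, 12.0 and 6.35 CPM in replicates 1, 2 and 3, from 70, 97 and 58 reads. Replicate 2 was the highest, and its interval of 9.71 to 14.6 CPM lay above those of both other libraries, which reached 9.65 and 8.21 CPM.

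Among the subunit genes Rela was the highest and Relb the lowest in CPM, whereas Rel had the lowest mean per kilobase of transcript. Rela (chromosome 19, 5637483 to 5648130) encodes p65, the main activating subunit of the classical route, and had 76.7, 52.3 and 54.5 CPM in replicates 1, 2 and 3. It was high in replicate 1 only. Rel (chromosome 11, 23736847 to 23770970), whose product c-Rel is known for its role in lymphocytes, had 35.12, 38.25 and 29.003 CPM. Its lowest library was replicate 3. Nfkb1 (chromosome 3, 135584655 to 135691547), the source of p50, the usual partner of p65, had 19.3, 21.5 and 18.1 CPM, a mean of 19.6 ± 1.73 CPM (SD, n = 3). The intervals of Nfkb1 overlapped in all libraries.

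Nfkb2 (chromosome 19, 46304320 to 46312385) and Relb (chromosome 7, 19606217 to 19629438) encode the partners of the alternative route. Nfkb2 had 27.3, 24.6 and 35.6 CPM and was highest in replicate 3. Relb had 14.1, 14.6 and 7.44 CPM and was lowest in replicate 3, at 68 reads against 129 and 118. The libraries therefore stood in opposite order for these genes, and Relb reads were 0.516, 0.593 and 0.209 times Nfkb2 reads. The last 299 annotated bases of Nfkb2 overlap those of Psd on the other strand, and the Psd entry held 246, 241 and 227 reads beside 250, 199 and 325 for Nfkb2. The strand rule of the authors' counting is not given in the sources used here, and the Nfkb2 level is uncertain for that reason.

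Of the kinase genes, Chuk showed the widest contrast between libraries of any member, whereas Ikbkb differed 1.41-fold at most. Ikbkb (chromosome 8, 22659212 to 22706589), the kinase gene of the classical route, had 80.5, 57.1 and 66.1 CPM and was lowest in replicate 2. Chuk (chromosome 19, 44073335 to 44107480), which encodes IKKα, had 18.1, 37.6 and 17.9 CPM, with 166, 305 and 164 reads. Its level in replicate 2 was about 2.10 times the lowest library, and the others were almost equal. Chuk reads were 0.225, 0.659 and 0.272 times Ikbkb reads, a 2.93-fold range and the widest of the 9 ratios plotted. The entries beside Chuk in the files did not share this pattern. Cwf19l1 had 11.7, 5.18 and 7.22 CPM and Erlin1 8.29, 6.66 and 5.03 CPM in replicates 1, 2 and 3.

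**Figure D2:**
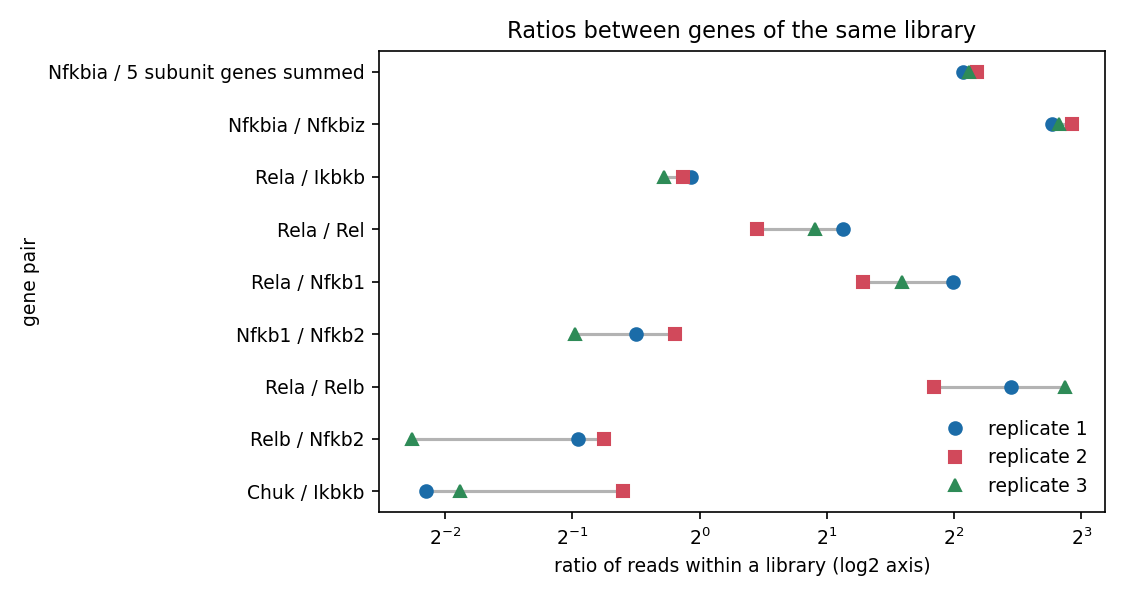
Ratio of reads between genes of the same library (log2 axis) for 9 pairs, 1 symbol per vehicle replicate, sorted by the range. Nfkbia over the 5 subunit genes moved least, from 4.20 to 4.55, and Chuk over Ikbkb most, from 0.225 to 0.659 with the highest value in replicate 2.

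In the order of mean levels, 4 of the 9 neighbouring pairs were apart in all libraries with ranges that did not overlap. These were Nfkbia over Nfkbiz, with a mean ratio of 7.16, Nfkbiz over Ikbkb with 1.41, Rela over Rel with 1.78 and Nfkb1 over Relb with 1.70. Ikbkb lay above Rela in all libraries and Relb above Tnfaip3 likewise, but their ranges overlapped. Rel, Nfkb2, Chuk and Nfkb1, with means of 34.1, 29.1, 24.6 and 19.6 CPM, formed 3 neighbouring pairs that changed places between libraries and cannot be ranked. In CPM, Rel and Nfkb2 nevertheless each lay above Nfkb1 in all libraries, with ranges that did not overlap those of Nfkb1. With 3 libraries an exact two-sided sign-flip permutation test cannot go below p = 0.25, and all pairs with the same order in 3 of 3 libraries had that value. Per kilobase of the longest coding transcript in GENCODE, Nfkbia stayed first, at 430.8 CPM per kilobase against 23.1 for Nfkbiz, and Tnfaip3 stayed last at 1.96. On that scale 3 pairs were apart, and Rela lay above Ikbkb at 22.5 against 17.1. Rel dropped to 4.57, below Nfkb1 at 4.76 and Relb at 5.44, and had the lowest mean of the subunit genes. The pairs Relb and Nfkb1, and Nfkb1 and Rel, changed places between libraries per kilobase and cannot be ranked on that scale.

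Of the 10 members, 9 differed between libraries by more than counting noise (exact binomial test, two-sided, with Benjamini-Hochberg adjustment over 11833 genes), where 56.5% of all genes tested did. The count was 8 with TMM scaling (52% of all genes), median-of-ratios scaling (51.8%), the authors' scaling (51.9%) and totals without the 20 most abundant genes (52.2%). It was 9 with no read minimum (45.8%) and with a chi-square test (58.9%). The members' median level was 31.6 CPM against 16.8 CPM for all genes tested, and the test calls smaller differences in genes with more reads. The median coefficient of variation (CV) was 18.5% for the members and 17.1% for all genes tested. On the deposited log2 scale the median SD was 0.20 for the members and 0.21 for all genes tested. These sets were not matched for level, so the medians do not show whether the members' spread is usual for their level.

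Chuk had the lowest adjusted p, 9.55e-18, and a CV of 46.1%, where counting noise alone would give 6.81%. Rela and Nfkbia followed with adjusted p = 6.00e-11 and 3.55e-12 in the exact binomial test, but with unlike spreads, a CV of 22.0% for Rela and 7.23% for Nfkbia. The Nfkbia CV was lower under the 4 other scalings, at 3.18% to 4.15%, and was 3.79% without replicate 3. Relb and Tnfaip3 had CVs of 33.1% and 34.0% (adjusted p = 1.01e-05 and 0.000881, exact binomial test). Nfkb1 was the member that did not pass (adjusted p = 0.505, exact binomial test), with a CV of 8.80% against 7.62% from counting.

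**Figure D3:**
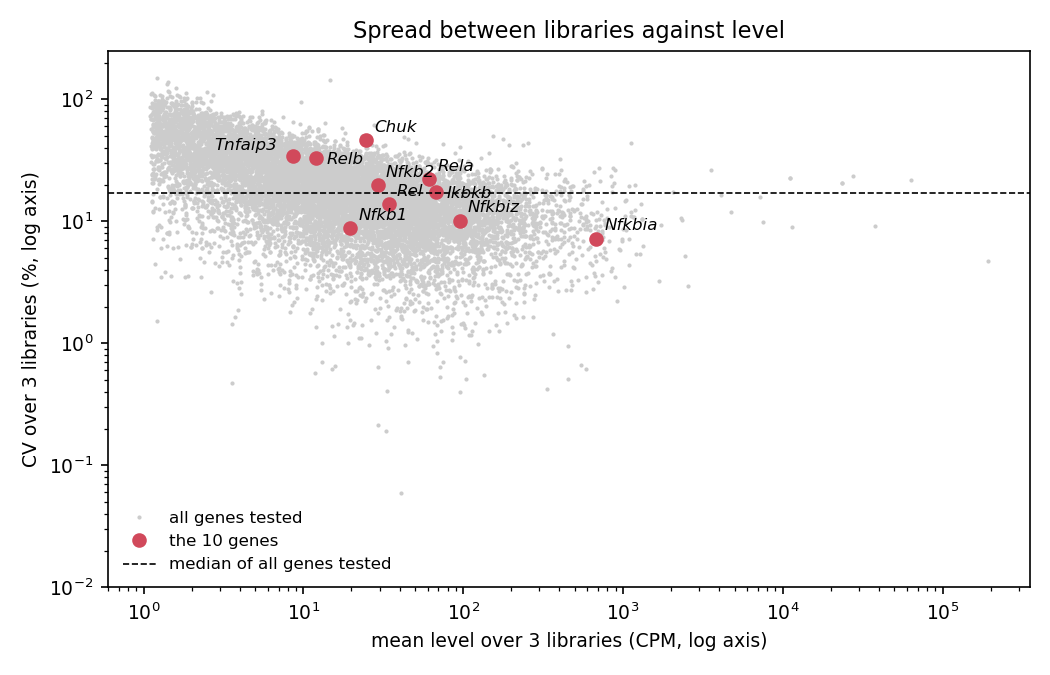
CV over the 3 vehicle libraries on library totals (%, log axis) against mean level (CPM, log axis) for the 10 genes in red and for all 11833 genes tested in grey, with the median CV of all genes tested, 17.1%, as a dashed line. Chuk at 46.1%, Tnfaip3 at 34.0% and Relb at 33.1% lie above the line, and Nfkbia at 7.23% (3.18% with TMM scaling) and Nfkb1 at 8.80% below it.

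Single libraries carried several of these differences. Without replicate 2 Chuk had a CV of 0.62% and Tnfaip3 13.02%, and neither passed the test (adjusted p = 0.982 and 0.462, exact binomial test). With replicate 3 left out Relb had a CV of 2.42%, Nfkb2 7.41% and Rel 6.03%, and these did not pass (adjusted p = 0.873, 0.410 and 0.436, exact binomial test). With replicate 1 left out Rela had a CV of 2.90% and Nfkbiz 1.33%, and they did not pass either (adjusted p = 0.690 and 0.823, exact binomial test), nor did Ikbkb (0.0519). Rel was also not called without replicate 2 (0.0574). With each library left out in turn 6 of the 10 members differed, where 34.8%, 39.0% and 38.5% of all genes did without replicates 1, 2 and 3. Nfkbia was called in all 9 alternatives, with adjusted p of at most 0.0179 in the exact binomial test, and Nfkb1 in none.

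On library totals 0, 3 and 7 members were lowest in replicates 1, 2 and 3, beside 20%, 37.6% and 42.4% of all genes tested. Highest in these libraries were 4, 5 and 1 members, beside 49.2%, 27.9% and 22.8%. With TMM scaling 4 in place of 7 members were lowest in replicate 3, and shares of all genes tested were not computed. Chuk and Nfkb1 were then lowest in replicate 1, at 17.0 and 18.1 CPM, and Nfkbiz was lowest in replicate 2. Nfkbia was highest in replicate 1 on library totals and in replicate 2 with TMM scaling, at 680.3, 699.6 and 656.5 CPM, and was lowest in replicate 3 with both. By the exact binomial test Nfkbiz differed on library totals (adjusted p = 0.000388) but not with TMM scaling (0.286), where it had 99.7, 92.1 and 92.9 CPM. Chuk and Tnfaip3 were highest in replicate 2, Relb lowest in replicate 3 and Rela highest in replicate 1 with both scalings.

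**Figure D4:**
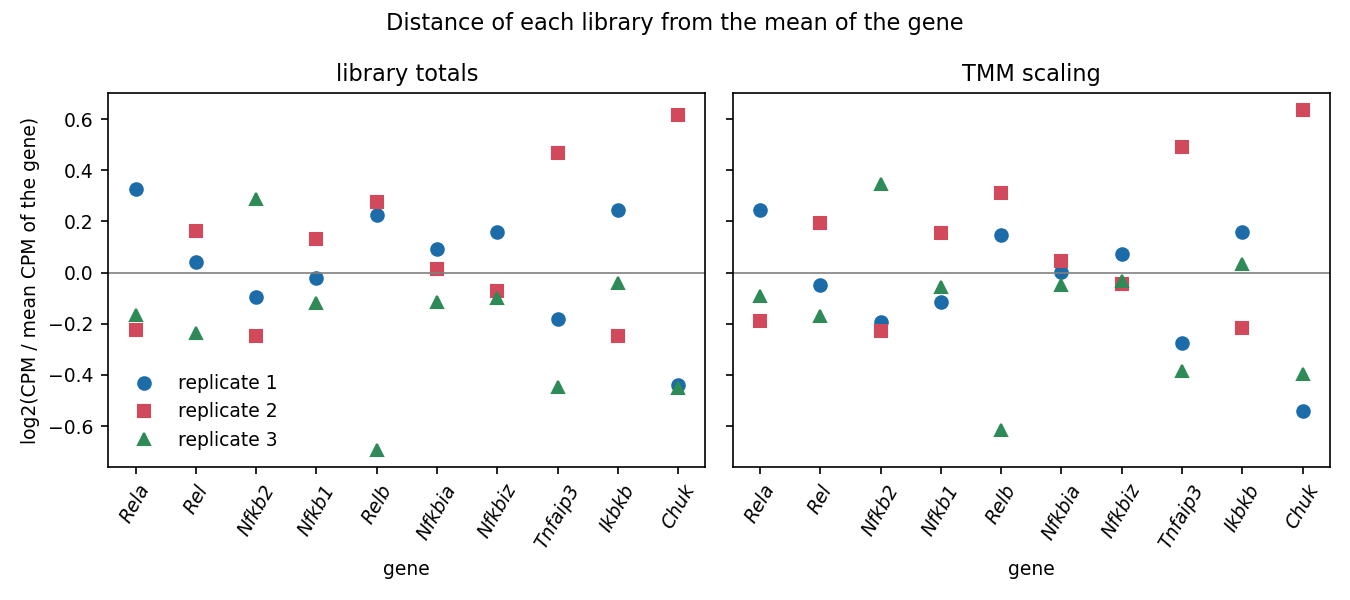
Log2 of each library's level over the gene's mean, for the 10 genes on library totals (left) and with TMM scaling (right), 1 symbol per vehicle replicate. Chuk and Tnfaip3 are set apart by a high replicate 2, Relb by a low replicate 3 and Rela by a high replicate 1 in both panels, whereas the order of libraries for Nfkbia differs between them.

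Markers of cell types and of handling also differed between the libraries. All 11 measured neutrophil markers were lowest in replicate 2. On library totals 3 members, Ikbkb, Rela and Nfkb2, and 37.6% of all genes tested were lowest there (4 members with TMM scaling). Immediate early genes, which respond within minutes to handling, summed to 0.305%, 0.343% and 0.289% of reads. With TMM scaling the sums were 0.286%, 0.349% and 0.303%, lowest in replicate 1 and not replicate 3. Of the 12 genes, 9 were highest in replicate 2, or 10 with TMM scaling. So were 5 members on library totals, Chuk, Tnfaip3, Rel, Relb and Nfkb1, and 27.9% of all genes tested (6 members with TMM scaling). B cell markers summed to 0.0704%, 0.0713% and 0.0561%, with 5 of 8 lowest in replicate 3, or 4 with TMM scaling. Lowest there on library totals were 7 members, all but Ikbkb, Rela and Nfkb2, and 42.4% of all genes tested (4 members with TMM scaling). Stroma markers summed to 0.0309%, 0.0263% and 0.0214%, with 5 of 6 lowest in replicate 3 under both scalings. Stem and progenitor markers summed to 0.0351%, 0.0338% and 0.0274%, with 4 of 6 lowest there, or 3 with TMM scaling. Their sums with TMM scaling were 0.0329%, 0.0344% and 0.0286%, highest in replicate 2 and not replicate 1. Of the erythroid markers 7 of 8 were lowest in replicate 1 under both scalings. Highest there on library totals were 4 members, Rela, Ikbkb, Nfkbia and Nfkbiz, and 49.2% of all genes tested (3 members with TMM scaling). The shares of all genes tested are on library totals and were not computed with TMM scaling, so the TMM counts have no background beside them. The part of these cells and of handling in the members' levels was not tested.

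Of 71 other genes of the pathway, 41 of the 66 with at least 30 reads differed between libraries (exact binomial test with Benjamini-Hochberg adjustment over all genes, background 56.5%). Their median CV was 16.9%. Among the other IκB genes 2 of 4 differed. Nfkbib, encoding IκBβ, had 91.9, 70.7 and 69.7 CPM, about 0.113 times the Nfkbia reads on average, and differed, while Nfkbid with 25.1, 22.5 and 27.0 CPM and Nfkbie with 22.6, 20.5 and 24.5 CPM did not pass.

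Upstream of the members, 5 of 8 genes of the kinase complexes, 3 of 9 receptor genes and 12 of 19 tested adaptor and ubiquitin ligase genes differed between libraries. The share over all genes tested was 56.5%. Tab2, which couples ubiquitin chains to the kinase TAK1, was the most abundant of the kinase complex list at 158 ± 8.60 CPM (SD, n = 3), and Map3k7, which encodes TAK1, had 45.4, 40.0 and 32.3 CPM. Tab3 had 15.9, 25.3 and 14.8 CPM and was highest in replicate 2. The TNF receptor genes Tnfrsf1a and Tnfrsf1b stood at 73.5 ± 3.62 and 56.2 ± 1.78 CPM and did not pass the exact binomial test when scaled by totals (adjusted p = 0.398 and 1). With TMM scaling Tnfrsf1a did (0.0138). Ltbr, a receptor that feeds the alternative route, had 43.96, 33.9 and 41.7 CPM.

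Among the adaptors, Irak1, a kinase downstream of Toll-like and interleukin-1 receptors, had 87.3, 95.9 and 75.4 CPM, and Bcl10, which links antigen receptors to the kinases, 60.2, 47.6 and 48.7 CPM. Myd88, the adaptor shared by these receptors, had 51.5, 51.3 and 50.5 CPM, a CV of 1.08%, and did not pass (adjusted p = 1, exact binomial test). Its replicate 3 stood -0.03 log2 units from the other libraries on library totals and 0.07 above them with TMM scaling, and the SD of its deposited log2 values was 0.07. Traf3, which restrains the alternative route by promoting decay of its upstream kinase, had 34.0, 27.6 and 18.5 CPM, was lowest in replicate 3 and was called in all 9 alternatives.

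Of the negative regulators 7 of 10 tested genes differed, and of the target genes 12 of 16, beside 56.5% of all genes tested. Tax1bp1, which works with A20, was the most abundant regulator listed, at 327, 398 and 324 CPM, with 42.8, 33.3 and 51.1 times the reads of Tnfaip3. The deubiquitinase gene Cyld had 79.0, 72.3 and 56.4 CPM, the A20-binding protein gene Tnip1 61.3, 57.5 and 52.6 CPM, and the ligase gene Itch 34.5, 35.8 and 21.6 CPM. Tnip1 did not pass (adjusted p = 0.122, exact binomial test). Of the targets, the neutrophil chemokine gene Cxcl2 had 395, 307 and 227 CPM and the interleukin gene Il1b 349, 155 and 205 CPM, with a CV of 42.4%. Both were highest in replicate 1 and were called in all 9 alternatives. Of the 16 tested targets, 6 were highest in replicate 1 and 8 in replicate 2 on library totals, or 4 and 10 with TMM scaling. Among all genes tested, 49.2% and 27.9% were highest in these libraries on library totals, and the shares with TMM scaling were not computed. Vcam1, an adhesion molecule gene that marrow macrophages and stroma also express, had 184, 194 and 157 CPM.

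**Figure D5:**
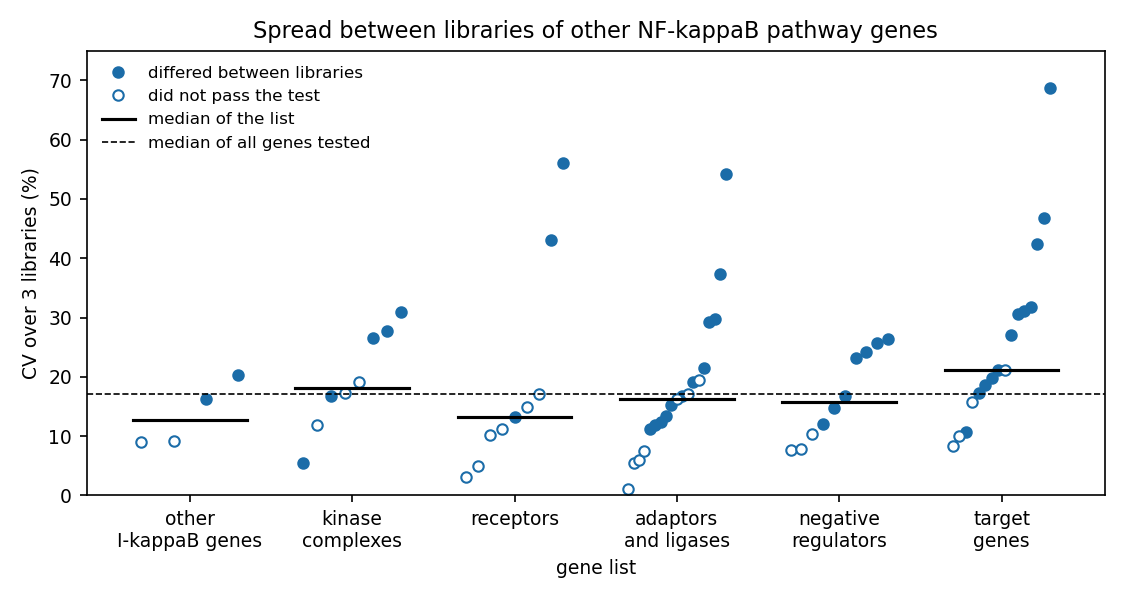
CV over the 3 vehicle libraries (%) for the 66 tested pathway genes in 6 lists, filled where the gene differed between libraries and open where it did not pass, with each list's median as a bar and the median of all genes tested, 17.1%, as a dashed line. The target list has the highest median, 21.1%, and the other IκB list the lowest, 12.7%.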

How the data were processed

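RNA of 3 vehicle bone marrow samples was extracted with Trizol, and 500 ng of it went into a Lexogen QuantSeq kit, per the labels' protocols. The submitters' processing notes name Bowtie2, bedtools and mm10. Not given in the sources used here are tool versions, gene annotation, strand handling and how libraries were scaled. The authors deposited log2 values that behave as log2(x + 1), x being reads per 1000000 of a library size they scaled. Each value gave a whole number of reads within 1e-06, so reads were recovered. The library size used by the authors was 1.12, 1.03 and 1.01 times the recovered total in replicates 1, 2 and 3. The design had assumed counts, and its exact tests ran on these recovered reads.

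Genes with 30 or more reads in total were tested with an exact binomial test, two-sided, that set each library against the pool of the others. The smallest p was multiplied by 3 and adjusted by Benjamini-Hochberg at 0.05 over all genes (Python 3.11.15, scipy 1.17.1). These p-values set the spread against counting noise only, and intervals are exact 95% Clopper-Pearson intervals of counting error. On simulated counts of these libraries the test called 44 of 50 genes changed 1.5-fold in 1 library and 21 of 50 changed 1.2-fold. It called 10 of 11523 unchanged genes. The changed genes were drawn from those with more reads than the minimum for testing, so its power at the read total of Tnfaip3 was not measured. Alternatives were 4 other scalings, no read minimum, a chi-square test, leaving out each library, pseudocounts and levels per transcript length. The members, the 6 pathway lists, the marker lists and the tests were chosen with earlier results of these data known. Of each pathway list the 3 most abundant genes and the called gene of at least 20 CPM with the largest CV are named. Erlin1, Cwf19l1 and Psd were added as neighbours of members. Ccl3, Ccl4, Ccl5, Ier3, Bcl2l1, Il6, Il1a and Cxcl1, from the target list, are named outside this rule among the other observations. The rule itself named no gene for a pattern like a member's, since 3 libraries are too few for a measure of likeness. Sequences are from RefSeq tables of GRCm38.p6, and gene positions and transcript lengths from GENCODE on GRCm38, the assembly called mm10.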

Additional observations from a re-analysis of the deposited data

How the results depend on the processing

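The count of members that differed between libraries was 9 on library totals, 8 under each of the 4 other scalings, 9 with no read minimum or with a chi-square test, and 6 with any 1 library left out. Of the pathway genes, 41 differed on library totals, 40 to 44 under the other scalings, the read minimum and the chi-square test, and 25 to 27 with a library left out, when fewer reads and fewer libraries enter the test. The number of neighbouring pairs that were apart, each time in that setting's own order of levels, was 4 under each of the 4 other scalings. It was 5 to 6 with a library left out, where fewer values must be apart, and 3 per transcript length. Of these 3, only Nfkbia over Nfkbiz was also a neighbouring pair on library totals. Ikbkb over Nfkb2 and Rel over Tnfaip3 were not neighbours on library totals, but were apart there as well. For single genes 231 of 270 adjusted p values under an alternative kept their side of 0.05 and showed no change of direction, 29 were no longer called and 6 became called. The other 4 were of Myd88, uncalled throughout, whose direction turned with TMM, median-of-ratios and the authors' scaling and with totals without the 20 most abundant genes (adjusted p = 0.555, 0.508, 0.507 and 0.748, exact binomial test). No direction was given where the library left out was the one that differed most. The CV of members moved by over 1.5 times in 18 of 70 cases. The median SD of log2(CPM + pseudocount) over the members was 0.26 with pseudocounts of 1 and 0.5 and 0.23 with 5. Depth limits Tnfaip3 and Relb most, with 58 and 68 reads in replicate 3. No paired analysis was possible because the 3 libraries form 1 group.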

Other observations

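The CC chemokine genes among the listed targets, Ccl3, Ccl4 and Ccl5, singled out after their values were seen, were highest in replicate 2, unlike Cxcl2, which was highest in replicate 1. Ccl3 had 23.1, 32.3 and 24.5 CPM in replicates 1, 2 and 3, Ccl4 16.9, 23.6 and 16.4 CPM, and Ccl5 19.0, 25.2 and 17.5 CPM. Ier3, an early response gene, was instead lowest there, at 83.1, 58.6 and 73.0 CPM. Bcl2l1, which encodes the survival protein Bcl-xL and is abundant in erythroid cells, had 42.8, 77.5 and 77.9 CPM. The erythroid markers summed to 7.51%, 11.2% and 11.2% of reads, and the part of erythroid cells in the Bcl2l1 level was not tested. Of the inflammatory genes under 30 reads, Il6 had 12, 5 and 7 reads, Il1a 8, 0 and 8, and the 12 reads of Cxcl1 were all in replicate 2.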
